A study of Mus musculus with 4 samples.

Results

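The genes described here encode the proteasome, its assembly factors and its regulators: 46 protein-coding genes of the 25806 listed, chosen by name as the numbered members of the Psma, Psmb, Psmc, Psmd, Psme, Psmf and Psmg series, without the immunoproteasome genes Psmb8, Psmb9 and Psmb10. The choice used the gene name and the protein-coding biotype. Messenger RNA was sequenced from mammary glands of female MMTV-PyMT mice at the hyperplastic stage, with 2 libraries of mice that lacked the miR-9 knockout (controls) and 2 of mice that carried it. Both groups carried the PyMT transgene, in which the mouse mammary tumour virus promoter drives the polyomavirus middle T oncogene in mammary epithelium, on a mixed C57BL/6 background, and the controls were littermates. The knockout removed exon 1 of miR-9 and was obtained as heterozygous mice; which of the miR-9 genes was targeted, whether the sequenced mice were homozygous, their age and whether each library came from a single animal were not given in the labels. The level of miR-9 was not analysed here, so the knockout itself was not checked. P-values therefore measure the spread between these libraries, which may be technical.

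The proteasome degrades proteins tagged with ubiquitin. Its core, the 20S particle, is a barrel of outer alpha rings, which gate the channel, and inner beta rings, which hold the proteolytic sites. The 19S regulatory particle caps the barrel: a base with a ring of ATPases unfolds the substrate, and a lid removes the ubiquitin chain. Dedicated chaperones assemble both particles, and other activators can bind the barrel in place of the cap. When proteasome activity is short, the transcription factor Nrf1 (gene Nfe2l1) is known to raise the genes of all subunits together.

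The values are normalised read counts, that is whole read counts scaled by a single factor for each library, which summed to between 15904798 and 16418668 per library. Values are given in the order control 1, control 2, knockout 1, knockout 2. Of 22455 genes tested with limma on log2(value + 1), 131 had an adjusted p below 0.05. Control 2 had the lowest correlation with the knockouts over tested genes, 0.953 and 0.960, against 0.971 and 0.972 for control 1 and 0.973 between the controls. The epithelial identity of the tissue was visible in the markers: 9 luminal epithelium genes (Epcam, keratins, Cdh1 and claudins) summed to 87724 and 88711 in the controls against 87637 and 77923 in the knockout libraries. The sum hides opposite differences: Krt19 passed the threshold with a log2 difference of 0.98 (limma adjusted p = 0.0351), and the median of the 9 was -0.24. In 7 of the 9 genes both knockouts lay below both controls, where 25.6% of all tested genes did so. Lists of other cell types differed between libraries. The 7 adipocyte markers summed to 13332 and 6253 in the controls against 29716 and 9672 in the knockout libraries, and 5 markers of B and plasma cells to 2054 and 1284 against 6236 and 3990. Of the latter, Ms4a1 was at 0 in control 2 and knockout 2.

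MicroRNA-9 acts by pairing its seed with sites in the 3' UTR of a message, so its mature sequence and the sites found in proteasome genes are shown first. In the mature miR-9-5p of RefSeq (GRCm38.p6), which is the same in all mouse miR-9 genes, bases 2 to 8 are the seed and stand in capitals.
mmu-miR-9-5p: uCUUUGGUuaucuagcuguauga
In the longest annotated 3' UTR of each gene (GENCODE M21, GRCm38), 4 of the 46 genes held a 7-base or 8-base match to this seed, or 8.70%, against 21.9% of 15850 tested protein-coding genes. The 3' UTRs of the proteasome genes were short, with a median of 295 bases against 1096. The matches were 7-base sites in the alpha-ring gene Psma3, the ATPase gene Psmc6 and the inhibitor gene Psmf1, in the 30 bases or fewer shown here with the match in capitals.
Psma3 (chr12:70995503-70995509, plus strand): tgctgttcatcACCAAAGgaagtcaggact
Psmc6 (chr14:45349693-45349699, plus strand): gtttcataaatACCAAAGgactaa
Psmf1 (chr2:151718057-151718063, minus strand): aggatgatttcACCAAAGcaggcacactag
The fourth, an 8-base match in Psmb1, lies in a longer alternative transcript, and the same bases are coding sequence in another Psmb1 transcript.
Psmb1 (chr17:15476060-15476067, minus strand): tctgcatcgtgACCAAAGAgggcatcaggg
These 4 genes had log2 differences, knockout minus control, of -0.27, -0.11, -0.07 and -0.20 in the order shown, none past the threshold. Their median of -0.15 equalled that of the proteasome genes without a match. Over the 15850 tested protein-coding genes the median was 0.05 with a match and -0.02 without one, which was not tested. A seed match is a description of the sequence and not evidence that the site is used.

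All 46 genes were expressed above the test's minimum, a value of 1 in at least 2 libraries. None passed the limma threshold in either direction, against 0.583% of all tested genes (0.414% higher and 0.169% lower in the knockouts), and the smallest adjusted p was 0.139. At an unadjusted p below 0.05, 9 proteasome genes were lower and 0 higher, where 7.66% of all tested genes were lower and 10.3% higher. That count of lower genes depended on the setting: it was 3 with equal library totals or voom weights, 1 with quantile normalisation, and 0 (with 1 higher) without the trend and robust settings. Leaving out a library gave 17 lower and 1 higher without control 1, 1 lower and 1 higher without control 2, 0 without knockout 1 and 2 lower without knockout 2. Most of the genes had slightly lower values in the knockout glands: the log2 difference was below 0 in 37 of the 46, against 49.6% of all tested genes, and its median was -0.15 (quartiles -0.25 and -0.04) against 0.00 (quartiles -0.25 and 0.45) over all genes. In 23 genes both knockouts lay below both controls and in 4 above, where 25.6% and 25.5% of all tested genes did so, and in the other 19 the groups overlapped. The summed 46 genes came to 99211 ± 7402 in the controls and 89105 ± 6065 in the knockouts (SD, n = 2), 10.2% lower and not tested as a sum. With quantile normalisation the median was -0.08 beside -0.04 over all genes, and with libraries scaled to equal totals it was -0.11 beside 0.04, each with 35 of 46 genes below 0.

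**Figure D1:**
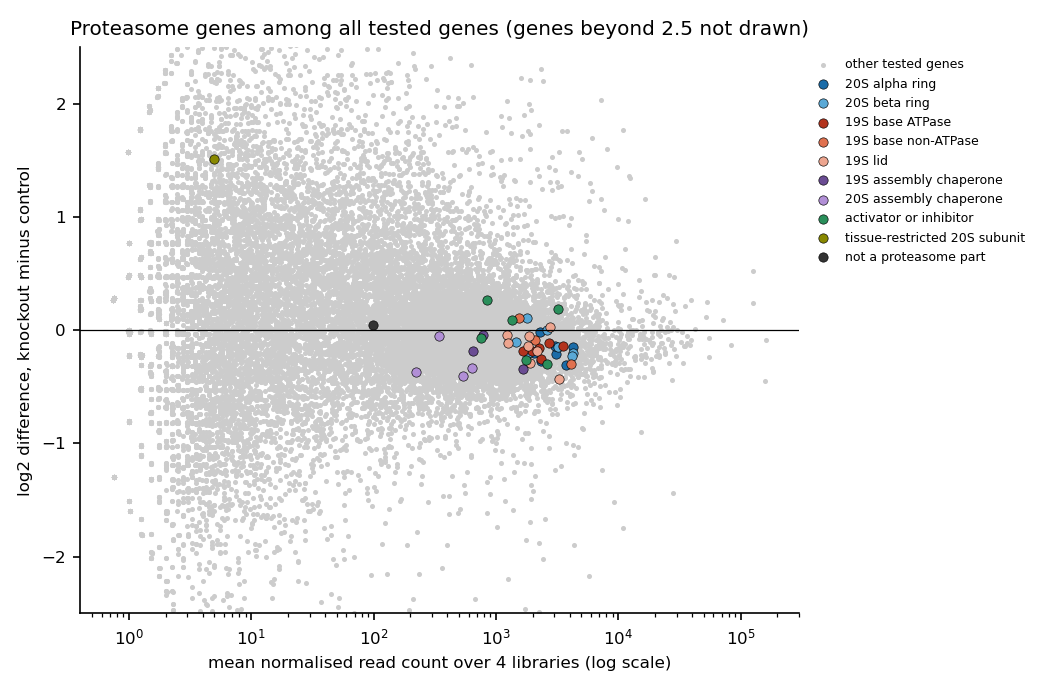
Each point is a gene, with its mean normalised read count over the 4 libraries on the x axis (log scale) and its log2 difference, knockout minus control, on the y axis; proteasome genes are coloured by role and other tested genes are grey, without those beyond 2.5 in either direction. The proteasome genes lie around a median of -0.15, apart from Psma8, which lies at 1.51 at a very low level.

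The difference between the genotypes was about as large as that between libraries of 1 genotype. Over the 31 subunits of the 20S and 19S particles, the median log2 difference was 0.12 between control 2 and control 1 and 0.15 between knockout 2 and knockout 1, with the second library higher for 27 of the 31 in each group. Between genotypes it was -0.13 for knockout 1 against control 1 and -0.30 against control 2, and -0.02 for knockout 2 against control 1 and -0.16 against control 2. Knockout 2 was thus close to control 1, with 13 of 31 subunits higher than there. Knockout 1 was the lowest library for 24 of the 31 subunits and control 2 the highest for 23. The 46 genes together made up 0.574% and 0.636% of the summed values in the controls against 0.533% and 0.581% in the knockout libraries.

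Knockout 1, the lowest library, also had the highest adipocyte and B-cell marker sums given above, and control 2, the highest, had the lowest. The luminal markers had a median log2 difference of -0.24, in the same direction as that of the proteasome genes and further from 0. Their median log2 level minus each gene's mean was 0.11 and 0.14 in the controls against -0.03 and -0.19 in the knockouts. By this median knockout 2, not knockout 1, was the lowest library for the luminal markers. The 5 basal epithelium markers had a median log2 difference of 0.50, with 4 above 0 and 1 below. The part of cell composition in the differences was not tested, and in whole glands fewer epithelial cells and less RNA per cell cannot be told apart. Without control 1 the median over the 46 genes was -0.21, without knockout 2 it was -0.22, without knockout 1 it was -0.11 and without control 2 it was -0.10. Single genes moved more: without control 2 the log2 difference was -0.18 for Psmd2, -0.16 for Psme4, -0.11 for Psmb4 and -0.09 for Psmb5, and for Psma1 it was -0.20 without control 2 and -0.16 without knockout 1.

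**Figure D2:**
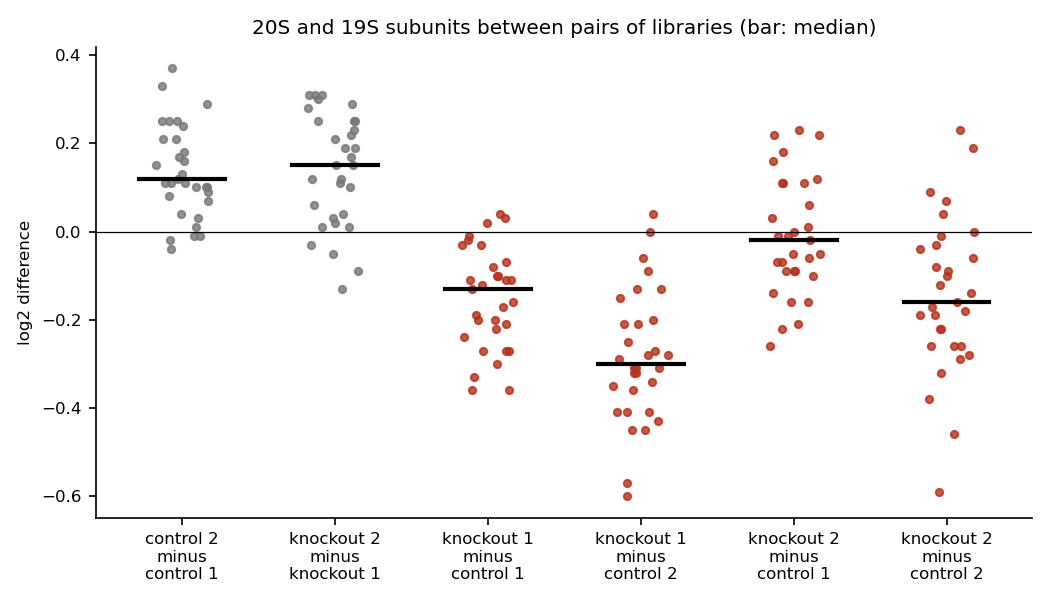
Each point is 1 of the 31 subunits of the 20S and 19S particles, the y axis gives its log2 difference between the pair of libraries named on the x axis, and the black bar is the median. The grey pairs are libraries of the same genotype, with medians of 0.12 and 0.15, and the red pairs are of different genotypes, with medians from -0.30 to -0.02.

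All 7 alpha genes had a log2 difference below 0, from -0.31 to -0.02 with a median of -0.20, and in 4 of them both knockouts lay below both controls. Psma1 (ENSMUSG00000030751, GRCm38 chromosome 7, 114264606 to 114276118) had normalised read counts of 3808 and 4426 in the controls against 2980 and 3677 in the knockout libraries. Knockout 1 lay well below the other libraries, and the groups were separated only by the small gap between control 1 and knockout 2. The log2 difference was -0.31 (SE 0.13, limma adjusted p = 0.273). Psma3 (chromosome 12, 70974621 to 70996347), a subunit of the same ring, read 2503 and 2647 against 1992 and 2283, with a log2 difference of -0.27 (SE 0.11, limma adjusted p = 0.251). Its knockout libraries were both lower than its controls, and they differed from each other more than the controls did. The summed alpha ring was 21439 and 22967 in the controls against 17838 and 21201 in the knockout libraries, so knockout 1 lay further from the controls than knockout 2 did.

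In the beta ring the non-catalytic subunits Psmb1 and Psmb4 had the smallest unadjusted p. Psmb1 (chromosome 17, 15475021 to 15499751) read 4377 and 4672 in the controls against 3786 and 4096 in the knockout libraries, and both knockouts were lower. The log2 difference was -0.20 (SE 0.10, limma adjusted p = 0.338). Psmb4 (chromosome 3, 94884093 to 94886961) read 4137 and 4900 against 3597 and 4083, with control 1 and knockout 2 nearly level and a log2 difference of -0.23 (SE 0.12, limma adjusted p = 0.349). The catalytic subunits did not pass the threshold either. Psmb5, which carries the chymotrypsin-like site (chromosome 14, 54614119 to 54618022), read 1821 and 2106 in the controls against 1692 and 1728 in the knockout libraries, a log2 difference of -0.20 with a 95% confidence interval from -0.45 to 0.06. Psmb6, with the caspase-like site (chromosome 11, 70525367 to 70527858), read 3303 and 3497 against 3056 and 3079, a log2 difference of -0.15 with an interval from -0.37 to 0.08. In both genes the knockouts lay close to each other and below the controls. Psmb7, with the trypsin-like site (chromosome 2, 38588036 to 38644087), read 1393 and 1641 against 1276 and 1556, so that the groups overlapped, and its log2 difference of -0.10 (interval -0.42 to 0.21) changed sign without control 2 or without knockout 1. Psmb2 and Psmb3 had log2 differences of 0.11 and 0.00, the only values of the ring not below 0.

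**Figure D3:**
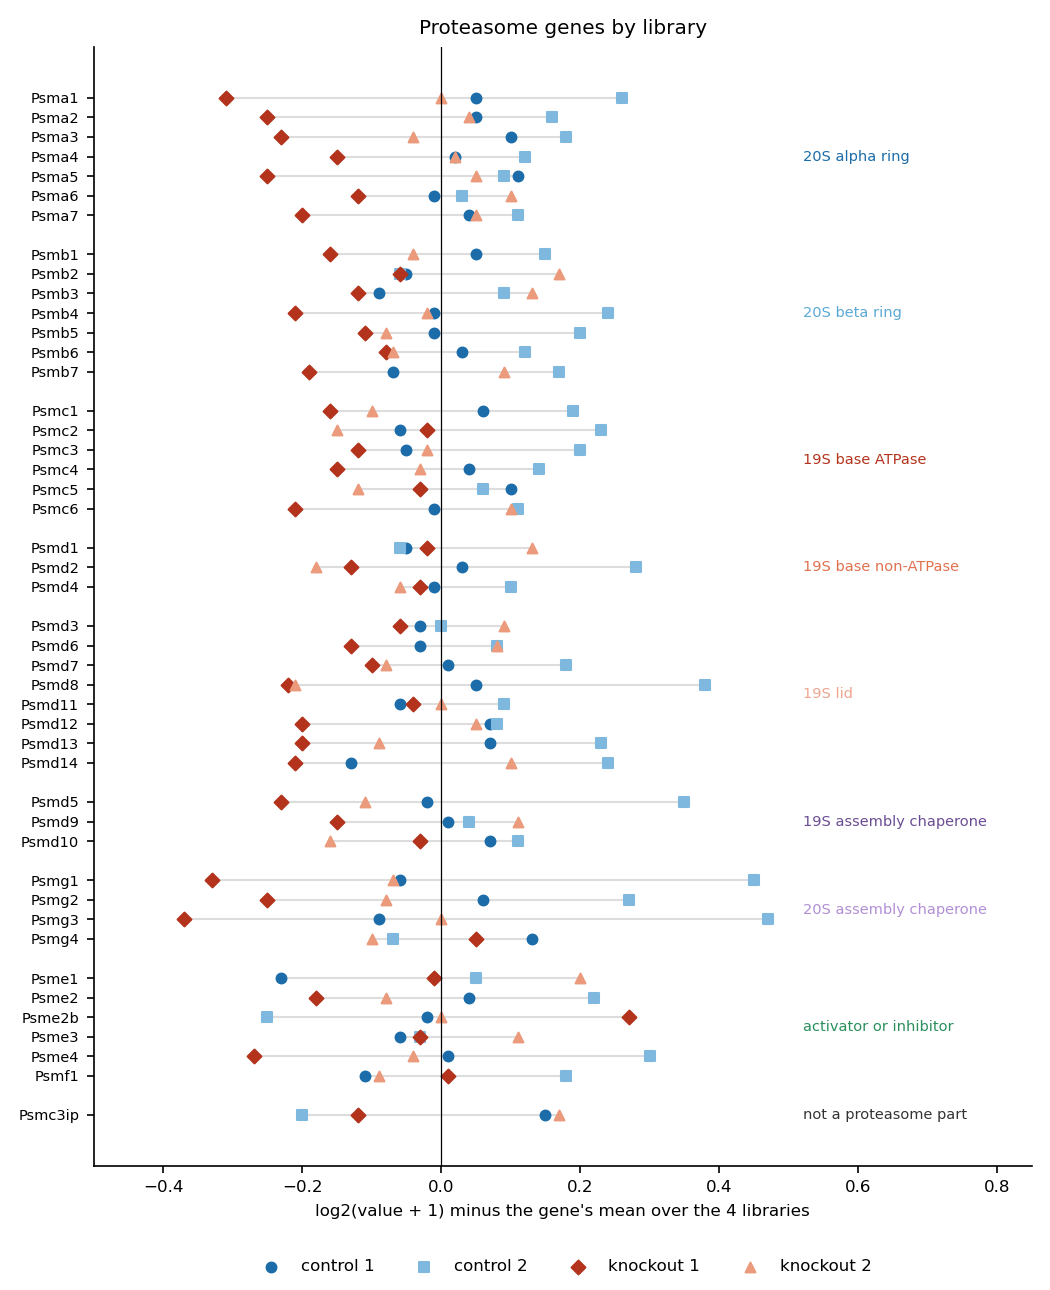
Each row is a gene, grouped by role, and each symbol a library, with log2(value + 1) minus the gene's mean over the 4 libraries on the x axis; Psma8 is left out for its very low level. Over all 46 genes knockout 1 was the lowest library for 31 and control 2 the highest for 31. Many rows depart from this order, among them Psme1, Psme2b, Psmd1 and Psmb2.

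The ring of ATPases at the base of the 19S particle lay in a narrower range, with all 6 genes between -0.25 and -0.11 on the log2 scale and a median of -0.17. Psmc1 (chromosome 12, 100110154 to 100123405) read 2451 and 2672 in the controls against 2106 and 2196 in the knockout libraries, with a gap between the groups wider than that within either. Its log2 difference was -0.25 (SE 0.10, limma adjusted p = 0.253). Psmc4 (chromosome 7, 28041707 to 28050101) read 1698 and 1825 against 1495 and 1615, a log2 difference of -0.18 (limma adjusted p = 0.403). Psmc5 (chromosome 11, 106256154 to 106263120) read 2402 and 2344 against 2195 and 2066, with a log2 difference of -0.16, and it was 1 of the 4 subunits in which knockout 2, not knockout 1, was the lowest library.

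Among the other base subunits, the scaffold proteins Psmd2 and Psmd1 went opposite ways. Psmd2 (chromosome 16, 20651652 to 20663414), which offers docking sites for ubiquitin receptors, read 4133 and 4913 in the controls against 3717 and 3585 in the knockout libraries, a log2 difference of -0.30 (SE 0.11, limma adjusted p = 0.225). Psmd1 (chromosome 1, 86064387 to 86139151) read 1483 and 1472 against 1507 and 1675, a log2 difference of 0.11 (SE 0.11, limma adjusted p = 0.637). The knockouts lay below the controls in the first and above them in the second, although neither passed, and their difference from each other was not tested. The ubiquitin receptor gene Psmd4 had a log2 difference of -0.09.

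The lid held the lowest log2 difference of all 46 genes. Psmd8 (ENSMUSG00000030591, chromosome 7, 29174188 to 29180701), a lid subunit, read 3323 and 4173 in the controls against 2743 and 2772 in the knockout libraries. The knockouts were nearly identical and the controls far apart, with control 2 the highest. The log2 difference was -0.43 (SE 0.13, limma adjusted p = 0.139), which is 25.9% lower, and it was -0.60 without control 1, where it passed the threshold, and -0.27 without control 2, where it did not (limma adjusted p = 0.310). Psmd13 (chromosome 7, 140881968 to 140898643), another lid subunit, read 1978 and 2208 against 1642 and 1775, a log2 difference of -0.29 (SE 0.11, limma adjusted p = 0.224), with both knockouts below both controls. Psmd11 (chromosome 11, 80428615 to 80473248), which helps to hold the lid to the core, read 1186 and 1316 against 1204 and 1232. Its log2 difference was -0.04 and turned to between 0.00 and 0.04 under quantile normalisation, equal library totals, voom weights or without control 2. The remaining lid genes lay between -0.18 for Psmd7 and 0.03 for Psmd3, and Psmd14, the deubiquitinase of the lid, had a log2 difference of -0.11 with overlapping groups.

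Levels of subunits that occur in equal numbers in the finished particle were far from equal. Per kilobase of the principal transcript, the mean normalised read count over the 4 libraries ran from 828 for Psma3 to 4637 for Psma7 in the 20S core, a 5.60-fold range around a median of 2311. In the 19S particle it ran from 433 for Psmd11 to 2144 for Psmc3, a 4.95-fold range around a median of 1279. The order depends on the length used: per kilobase of the gene length in the files, which for 44 of the 46 genes is the union of all annotated exons, the extremes were Psmb7 at 429 and Psmb4 at 2142 in the core, and Psmd11 at 193 and Psmc5 at 1615 in the 19S particle. The ratio of the summed core to the summed 19S genes was 1.06 and 1.03 in the controls against 1.01 and 1.09 in the knockout libraries, with overlapping groups (exact permutation p = 1.00, two-sided, where 0.33 is the smallest that 2 against 2 libraries allow).

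**Figure D4:**
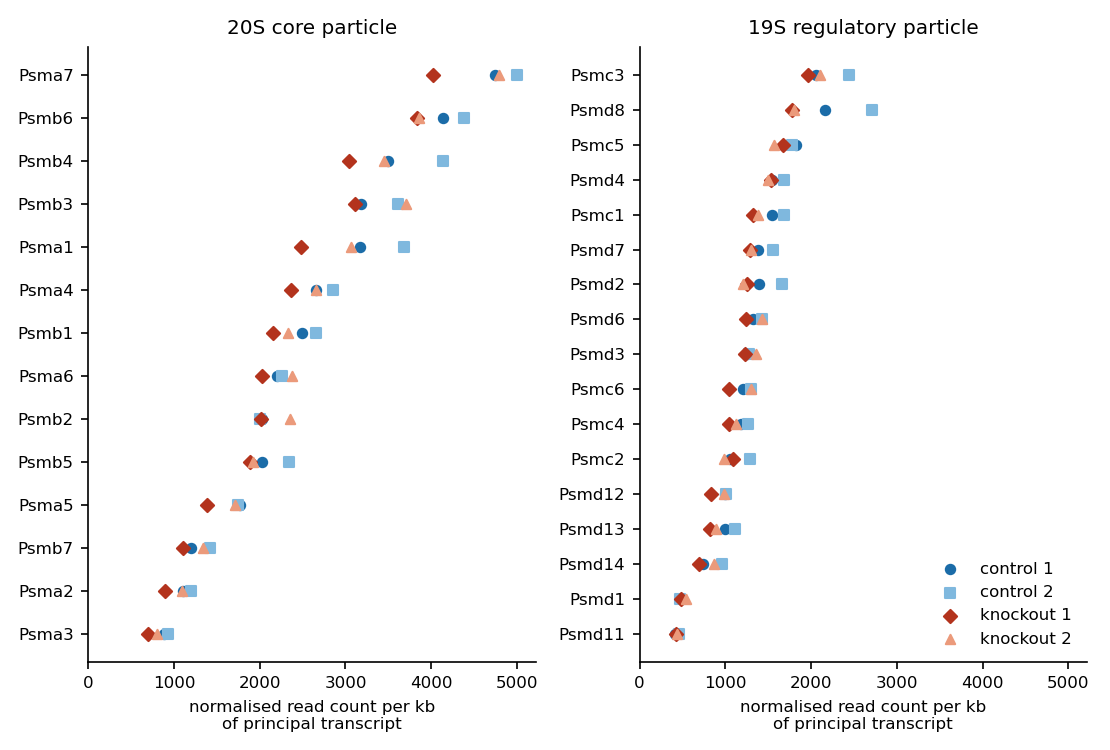
Normalised read count per kilobase of principal transcript on the x axis for the 14 core subunits on the left and the 17 subunits of the 19S particle on the right, 1 symbol per library, ordered by the mean. The means run from Psma3 at 828 to Psma7 at 4637 in the core and from Psmd11 at 433 to Psmc3 at 2144 in the 19S particle.

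Assembly factors had the lowest median of the main classes. The 7 chaperone genes all had log2 differences below 0, from -0.40 to -0.04 with a median of -0.33, and the summed levels were 4826 and 5699 in the controls against 4210 and 4578 in the knockout libraries. Psmg1 and Psmg2 encode partners that together start the alpha ring. Psmg1 (chromosome 16, 95979933 to 95990960) read 508 and 722 in the controls against 419 and 504 in the knockout libraries, a log2 difference of -0.40 (SE 0.19, limma adjusted p = 0.322). Control 1 and knockout 2 were practically level and control 2 stood high, so that the difference was -0.14 without control 2 and -0.65 without control 1. Psmg2 (chromosome 18, 67641599 to 67654162) read 658 and 758 against 530 and 596, a log2 difference of -0.33 (SE 0.14, limma adjusted p = 0.269), with a gap between the groups smaller than that within either. Psmg3, the least abundant of them, read 204 and 302 against 168 and 219 with overlapping groups, and Psmg4 had a log2 difference of -0.05. Of the chaperones of the 19S base, Psmd5 (chromosome 2, 34849734 to 34874968) read 1615 and 2086 against 1397 and 1514, a log2 difference of -0.34 (SE 0.14, limma adjusted p = 0.258) that became -0.52 and passed the threshold without control 1, and became -0.15 without control 2 (limma adjusted p = 0.592). Psmd10, also known as the oncoprotein gankyrin (chromosome X, 140948429 to 140956728), read 682 and 703 against 639 and 583, a log2 difference of -0.18 (SE 0.13, limma adjusted p = 0.471). Psmd9 had -0.04, and 25.5% of its annotated exon bases overlap a gene on the opposite strand; the strand setting was not given, so the reads cannot be told apart. In all, 13 of the 46 genes share annotated exon bases with another gene, among them Psmb5 with 12.1%, Psmb7 with 11.8% and Psmd13 with 10.1%.

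Of the activators and the inhibitor, 3 of 6 genes had a log2 difference below 0 and 3 above, with a median of 0.01; whether they differ from the particle's subunits was not tested. Psme4 (chromosome 11, 30771726 to 30880361), which encodes a large nuclear activator, read 2619 and 3193 in the controls against 2161 and 2537 in the knockout libraries, a log2 difference of -0.30 (SE 0.13, limma adjusted p = 0.280). Both knockouts were lower, by a small margin for knockout 2. Psme3, another nuclear activator, had a log2 difference of 0.09 and Psmf1, an inhibitor, one of -0.07. Psme1 and Psme2 encode the chains of the interferon-inducible activator, and they differed: Psme1 read 2736 and 3313 against 3181 and 3688, a log2 difference of 0.19 with overlapping groups (limma adjusted p = 0.476), and Psme2 (chromosome 14, 55587441 to 55591113) read 1807 and 2037 against 1543 and 1658, a log2 difference of -0.26 (SE 0.11, limma adjusted p = 0.266).

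Psme2 has a near-identical copy, Psme2b (chromosome 11, 48945354 to 48946190). The principal coding sequences of Psme2 and Psme2b matched at 712 of 717 bases, and the differences, counted from the first coding base with the Psme2 base first, were C312T, A369G, C489T, C519T and C543T. Coding bases 484 to 543 hold 3 of them, shown in capitals to make plain how little sequence separates the genes (GENCODE M21 transcripts).
Psme2: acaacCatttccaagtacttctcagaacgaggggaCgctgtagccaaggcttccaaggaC
Psme2b: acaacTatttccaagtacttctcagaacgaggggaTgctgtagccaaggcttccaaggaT
Psme2b read 829 and 710 in the controls against 1017 and 843 in the knockout libraries, a log2 difference of 0.27 (SE 0.14, limma adjusted p = 0.351), opposite in sign to that of Psme2. Their sum was 2636 and 2747 against 2560 and 2501, a smaller separation than for Psme2 alone, and how the counting split reads between the copies is not known. The ratio of Psme1 to the sum was 1.04 and 1.21 in the controls against 1.24 and 1.47 in the knockout libraries.

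The last genes of the series stand outside the common particle. Psma8, an alpha subunit of the testis proteasome (chromosome 18, 14706151 to 14762299), was near the detection floor at 2.05 and 1.99 in the controls against 5.97 and 9.71 in the knockout libraries, where 1 read is worth about 1. Its log2 difference of 1.51 (SE 0.68, limma adjusted p = 0.287) rests on a handful of reads. Its coding sequence shares 74.3% of bases with Psma7, which had 4334 and 4574 in the controls. Psmc3ip (chromosome 11, 101091823 to 101095436), which encodes a meiotic recombination factor that binds Psmc3 and is no part of the proteasome, read 108 and 84.7 against 89.5 and 110. The groups overlapped and the log2 difference of 0.05 changed sign under quantile normalisation and without control 2 or knockout 2, and 21.2% of its exon bases overlap Mlx on the opposite strand. The thymus subunit gene Psmb11 was not analysed here.

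The inducible subunits that replace the catalytic ones had higher values in the knockouts, none past the threshold. Psmb8, Psmb9 and Psmb10 had log2 differences of 0.35, 0.39 and 0.24 (limma adjusted p = 0.269, 0.180 and 0.368). In each, both knockouts lay above both controls, where 25.5% of all tested genes did so. Without control 1 those of Psmb8 and Psmb9 were 0.16 and 0.24, and without control 2 they were 0.55 and 0.53. A ratio within a library does not depend on the scaling, and these ratios were chosen after the values were seen. The ratio of Psmb8 to its constitutive counterpart Psmb5 was 0.846 and 0.958 in the controls against 1.23 and 1.41 in the knockout libraries, that of Psmb9 to Psmb6 was 0.263 and 0.303 against 0.418 and 0.400, and that of Psmb10 to Psmb7 was 0.976 and 1.04 against 1.42 and 1.14. In all 3 pairs the groups did not overlap, and the exact two-sided permutation p of 0.33 is the smallest that 2 against 2 libraries allow. Markers of immune cells, which express the inducible subunits strongly, were higher too: the 5 macrophage markers summed to 8286 and 7222 in the controls against 12216 and 10281 in the knockout libraries, and the 5 T-cell markers to 87.3 and 83.7 against 209 and 179. The part of such cells in the ratios was not tested.

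**Figure D5:**
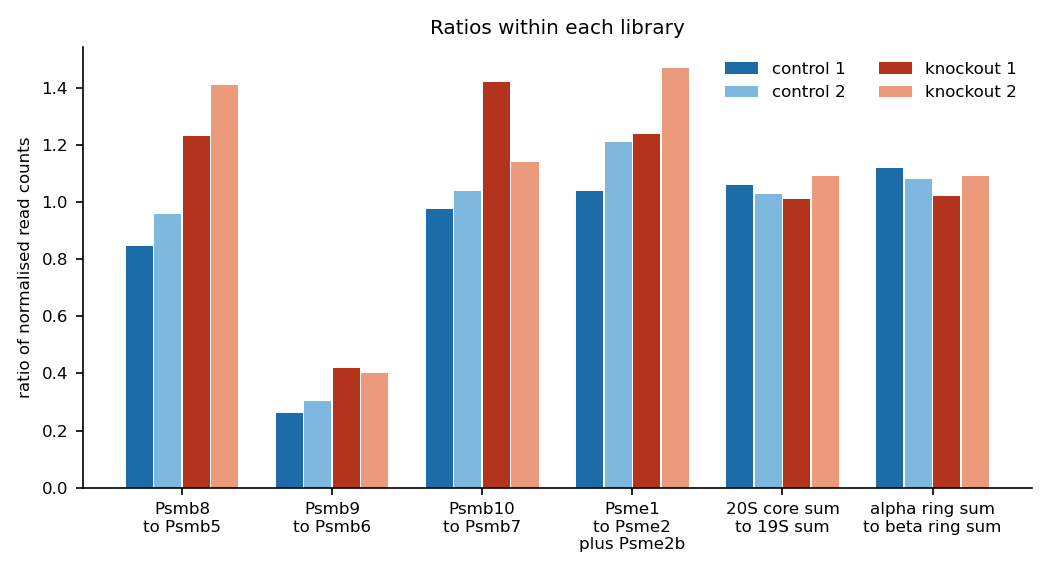
Bars give the ratio of normalised read counts within each library for the pairs named on the x axis, 1 bar per library. The ratios of inducible to constitutive catalytic subunits are higher in both knockouts than in both controls, while core to 19S and alpha to beta ring ratios stay between 1.01 and 1.12 in all libraries.

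Other genes of the pathway were read from lists by function. Of 16 partners of the proteasome, such as maturation factors, deubiquitinases and adaptors, none passed in limma, 6 had an unadjusted p below 0.05, all of them lower in the knockouts, and the median log2 difference was -0.23. Of all tested genes, 7.66% were lower and 10.3% higher at that unadjusted p. Uchl5, a deubiquitinase of the 19S base, read 788 and 1270 in the controls against 543 and 595 in the knockout libraries, a log2 difference of -0.81 (SE 0.22, limma adjusted p = 0.132). Control 2 was far above control 1, and without control 1 the log2 difference was -1.16 and passed the threshold, and without control 2 it was -0.47 (limma adjusted p = 0.185). Pomp, the maturation factor of the beta ring, read 3464 and 3822 against 2580 and 2967, a log2 difference of -0.40 (SE 0.11, limma adjusted p = 0.136), with both knockouts clearly below the controls. The gene of the 19S subunit Sem1 had -0.33 (limma adjusted p = 0.218).

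Of the 9 genes of the Nrf1 recovery pathway none passed in limma and 3 had an unadjusted p below 0.05, all lower, with a median of -0.06. Beside this and the lists below stand the shares of all tested genes at that unadjusted p, 7.66% lower and 10.3% higher. Nfe2l1, the gene of Nrf1, read 5080 and 5127 in the controls against 4457 and 4121 in the knockout libraries, a log2 difference of -0.25 (SE 0.10, limma adjusted p = 0.240), and the controls were almost identical. Maff, a small Maf partner of this family, read 151 and 124 against 83.6 and 81.6 (log2 difference -0.72, limma adjusted p = 0.223). Of 10 ubiquitin and ubiquitin-loading genes none passed in limma and 0 had an unadjusted p below 0.05, with a median of -0.10. Ubb, which encodes ubiquitin, had a log2 difference of 0.10 with overlapping groups (limma adjusted p = 0.738). Of 11 shuttle factors and partners of the unfoldase Vcp none passed in limma and 1 had an unadjusted p below 0.05, with a median of -0.15. Rad23b, which carries ubiquitinated proteins to the proteasome, read 2986 and 2865 in the controls against 2574 and 2505 in the knockout libraries, a log2 difference of -0.20 (limma adjusted p = 0.316). The 8 genes of the cytosolic chaperonin, a folding machine unrelated to the proteasome, had a median of -0.23, with none past the threshold in limma, 3 lower at an unadjusted p below 0.05, and Cct8 and Cct6a at -0.33 and -0.28 (limma adjusted p = 0.207 and 0.200). That median lay below the -0.15 of the proteasome genes.

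The promoters of the proteasome genes were read for the motif TGACNNNGC, the core of the antioxidant response element that Nrf1 and its relative Nrf2 bind, and for CCAAT, the motif of the factor NF-Y, on both strands, in the 300 bases from 250 before to 50 after each RefSeq start (GRCm38.p6). Of the 46 genes 38 had a promoter in the table, with 41 windows. TGACNNNGC was in 6 of these windows, or 14.6%, against 12.4% of 32851 promoters, and CCAAT in 13, or 31.7%, against 37.4%. Both shares were near those of all promoters. No proteasome promoter held both motifs, where only 4.37% of all promoters did. The 6 genes with TGACNNNGC had a median log2 difference of -0.14, and the 32 without it one of -0.17. Psmb5 and Psmb6, the catalytic genes whose knockouts did not overlap their controls, hold 1 match each, 47 and 9 bases before the start. Psmd12 and Psme4, whose knockouts also lay below their controls, hold the motif too. So do Psmd9 and Psmc6, whose groups overlapped. Psma1, the alpha gene with the lowest log2 difference, holds a pair of CCAAT matches, 1 on each strand, and Psmd8, with the lowest of all 46, holds neither motif. The promoters of Psmb5, Psmb6, Psma1 and Psmd8 are printed with the matches in capitals.
Psmb5 (chr14:54617946-54618245, minus strand): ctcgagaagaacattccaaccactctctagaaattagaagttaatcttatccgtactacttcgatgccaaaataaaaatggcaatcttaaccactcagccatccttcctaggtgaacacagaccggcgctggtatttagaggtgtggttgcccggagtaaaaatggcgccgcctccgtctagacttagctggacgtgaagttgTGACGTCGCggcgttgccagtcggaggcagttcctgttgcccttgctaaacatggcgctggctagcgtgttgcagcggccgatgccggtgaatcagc
Psmb6 (chr11:70525107-70525406, plus strand): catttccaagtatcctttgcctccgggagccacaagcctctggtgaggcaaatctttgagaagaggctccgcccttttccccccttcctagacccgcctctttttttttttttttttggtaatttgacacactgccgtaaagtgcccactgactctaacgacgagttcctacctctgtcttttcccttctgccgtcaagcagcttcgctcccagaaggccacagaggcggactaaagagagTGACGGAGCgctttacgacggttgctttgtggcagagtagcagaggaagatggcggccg
Psma1 (chr7:114276067-114276366, minus strand): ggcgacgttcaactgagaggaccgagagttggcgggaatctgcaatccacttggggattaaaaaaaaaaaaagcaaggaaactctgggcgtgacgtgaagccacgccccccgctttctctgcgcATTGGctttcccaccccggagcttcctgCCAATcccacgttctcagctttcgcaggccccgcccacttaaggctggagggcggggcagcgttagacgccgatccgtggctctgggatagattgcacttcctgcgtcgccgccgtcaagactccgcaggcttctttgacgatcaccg
Psmd8 (chr7:29180624-29180923, minus strand): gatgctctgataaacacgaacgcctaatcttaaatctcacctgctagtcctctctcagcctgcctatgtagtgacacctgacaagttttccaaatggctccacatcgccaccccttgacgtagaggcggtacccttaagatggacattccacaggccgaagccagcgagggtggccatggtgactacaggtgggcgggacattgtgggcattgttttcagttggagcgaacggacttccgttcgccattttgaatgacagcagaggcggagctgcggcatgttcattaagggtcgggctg
These matches are letters found in a window and say nothing of whether a factor is bound.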

How the data were processed

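The authors deposited 1 table per library of a normalised signal per gene, with positions on GRCm38. From the deposited values, each signal is a whole multiple of the smallest value of its library (100% within a tolerance of 1e-06), so they are read counts divided by 1 factor per library, with steps of 1.0274, 0.9964, 0.9949 and 0.9712 in controls 1 and 2 and knockouts 1 and 2. Per the labels' protocols, an Illumina TruSeq RNA kit was used. Per the submitters' processing notes, Bowtie 0.12.2 and the builds hg38, GRCm38 and mm10 were named, with no role. The counting tool, its strand setting and how the factors were set are not given in the sources used here. Differences are relative to that scaling. Steps near 1 do not meet the rule for recovering whole reads, so no count model was used.

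Genotypes were compared over all genes by two-sided limma tests (version 3.58.1, R 4.3.3, trended and robust prior) of log2(value + 1), without covariates, leaving 2 residual degrees of freedom, with Benjamini-Hochberg adjustment over 22455 genes with a value of at least 1 in at least 2 libraries. The fold changes on this scale understate low genes. An exact permutation of 2 against 2 libraries cannot give a two-sided p below 0.33. The procedure was run on simulated data with the same spread setting for all genes and changes of at least 2-fold. That simulation cannot speak for differences as small as those of most proteasome genes. Of the listed genes 25763 were in GENCODE M21, 97.2% with the same coordinates. The members, lists, tests and alternatives were chosen with earlier results of these data known. Named genes were the catalytic subunits, the 2 smallest unadjusted p of each role or list, the extremes of difference and of level per kilobase, and genes outside the common particle; other names were chosen after their values were seen. Alternatives were the pseudocount, filter, scaling, weighting, each library left out and a replicate block. Values of some genes of these lists are not reported here.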

Additional observations from a re-analysis of the deposited data

How the results depend on the processing

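Of the 46 proteasome genes 0 passed in limma under every alternative run except without control 1, where 2 did (Psmd5 and Psmd8, among 2361 genes that passed there), so over the libraries left out the count ran from 0 to 2. Their median log2 difference stayed below 0 throughout, from -0.22 without knockout 2 to -0.08 with quantile normalisation. The count over all genes was less stable: 131 became 33 with a pseudocount of 0.1, 332 with no filter, 66 with a minimum of 10, 257 with quantile normalisation and 0 without trend and robust settings, and it ran from 0 to 2361 when each library was left out, where the spread of the single remaining library is taken from the other genotype. With the replicate block 367 genes passed and still 0 proteasome genes; the labels do not say that numbers pair the libraries, and the correlation of deviations of same-numbered libraries was 0.118. Values near 0 changed sign: Psmd11 to 0.02 with quantile normalisation, 0.00 with equal totals or voom weights and between -0.11 and 0.04 over the libraries left out (0.04 without control 2); Psmc3ip to -0.20 with quantile normalisation, -0.12 without control 2 and -0.09 without knockout 2 (0.22 without control 1); Psmb7 to 0.02 without control 2 and 0.04 without knockout 1 (-0.24 without knockout 2). The cause was not tested. With 2 libraries per group the precision is low: the 95% confidence interval of Psmd8 ran from -0.72 to -0.14.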
